A study of Mus musculus with 19 samples.

Results

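The Nduf genes encode nuclear subunits of respiratory complex I and factors that help to assemble it. Every protein-coding gene whose Ensembl 96 symbol starts with Nduf was taken, on its symbol alone, which gave 46 of the 22028 protein-coding genes and of the 55536 genes counted in all. Of these, 36 encode subunits of the complex and 8 are Ndufaf assembly factors. The remaining pair are Ndufa4, now known as a subunit of complex IV, and its relative Ndufa4l2. The RNA came from ventricles of mice with an inducible heart-specific loss of Mpc1, a subunit of the mitochondrial pyruvate carrier, and from wild-type mice. The groups were KO-16 (MPC1CKO mice 16 weeks after induction in adult life, 5 libraries), WT-16 (wild type at 16 weeks, 5 libraries), KO-8 (MPC1CKO at 8 weeks, 4 libraries) and WT-8 (wild type at 8 weeks, 5 libraries). The driver of the deletion, the inducing agent, the age of the mice and whether wild-type mice received the agent are not given in the sources used here. Nor do the labels tie a library to an animal, so the spread behind every p-value is that between libraries.

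Complex I is the entry point of electrons from NADH into the respiratory chain. Its matrix arm takes electrons from NADH on a flavin and passes them along iron-sulfur clusters to ubiquinone, and its membrane arm uses that energy to pump protons. A small core does the chemistry and is encoded partly in the nucleus and partly in mitochondrial DNA, accessory subunits surround it, and assembly factors bind intermediates without staying in the finished enzyme. In heart muscle, NADH comes from the oxidation of fatty acids, pyruvate and other fuels inside mitochondria, and the pyruvate carrier brings pyruvate to that site.

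The libraries held 9.54 to 26.91 M counts (M, mega) in KO-16, 8.63 to 19.68 M in WT-16, 16.53 to 19.47 M in KO-8 and 17.42 to 27.52 M in WT-8, of which Nduf genes took 0.185% to 0.779%. Mpc1 had 26.2, 9.04, 9.26, 15.1 and 15.95 CPM (counts per M counts of the library, scaled by TMM factors) in KO-16 replicates 1 to 5, against 61.7 to 83.9 CPM in WT-16. At 8 weeks it had 8.42 to 11.99 CPM in KO-8 and 63.7 to 82.4 CPM in WT-8. It fell at both times, with a log2 fold change of -2.22 at 16 weeks (edgeR adjusted p = 0.00119) and -2.78 at 8 weeks (adjusted p = 6.03e-10). The ventricular marker Myl2 was at 3342 CPM or more in every library, and the atrial marker Myl7 reached at most 87.8 CPM. At 16 weeks 18S ribosomal RNA took 1.71% to 29.96% of the counts in KO-16 and 6.88% to 39.12% in WT-16, against at most 0.07% in any 8-week library. Replicate 4 of KO-16 and replicate 5 of WT-16 held 107 to 784 counts of each of 4 Y-linked genes, and the other libraries at most 1.

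At 16 weeks no Nduf gene passed the edgeR test at an adjusted p of 0.05, where 2.55% of the 15503 genes tested did (396 genes, 1.72% higher and 0.832% lower). All 46 members passed the filter on low counts. At an unadjusted p of 0.05, 7 of the 46 members (15.2%) passed, against 23.5% of all genes. They included Ndufs1, Ndufs6, Ndufab1 and Ndufaf4, lower in KO-16, and Ndufa11 and Ndufa4l2, higher in KO-16. Members' log2 fold changes ran between -0.59 and 1.10 with a median of -0.05, against a median of 0.02 over all genes, and 28 of 46 were below 0. The 95% interval of the fold change stayed within 0.5 of 0 on the log2 scale for 21 of 46 members, against 22.2% of all genes, so the remaining 25 members could not be bounded that closely at 16 weeks. KO-16 and WT-16 libraries overlapped for all 46 members, where 4.29% of all genes did not overlap (1.99% with KO-16 above and 2.3% with KO-16 below).

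The count differed between tools and with single libraries left out. By limma-voom it was 0 higher and 0 lower, where 0.729% and 1.77% of all genes were called. By DESeq2 it was 1 higher and 1 lower (4.35% and 3.39% of all genes). In a fit to all 19 libraries it was 2 higher and 5 lower (11.2% and 9.33%), and by limma-voom with quality weights 1 higher and 6 lower (6.57% and 8.1%). Without KO-16 replicate 1 it was 1 higher and 3 lower (6.38% and 5.64%), and without KO-16 replicate 5 it was 2 higher and 2 lower (6.64% and 5.38%). The members called in 1 or more of these included Ndufs1, Ndufs6, Ndufab1, Ndufaf4 and Ndufa1, lower, and Ndufa4l2 and Ndufa11, higher. On simulated counts of the 16-week comparison, 54 of 176 calls were false in a fit to all 19 libraries, against 9 of 119 in the main fit. The main fit recovered 10.4% of the simulated 1.5-fold changes and 58.2% of the 2-fold changes, so 0 calls does not exclude changes of such size.

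**Figure D1:**
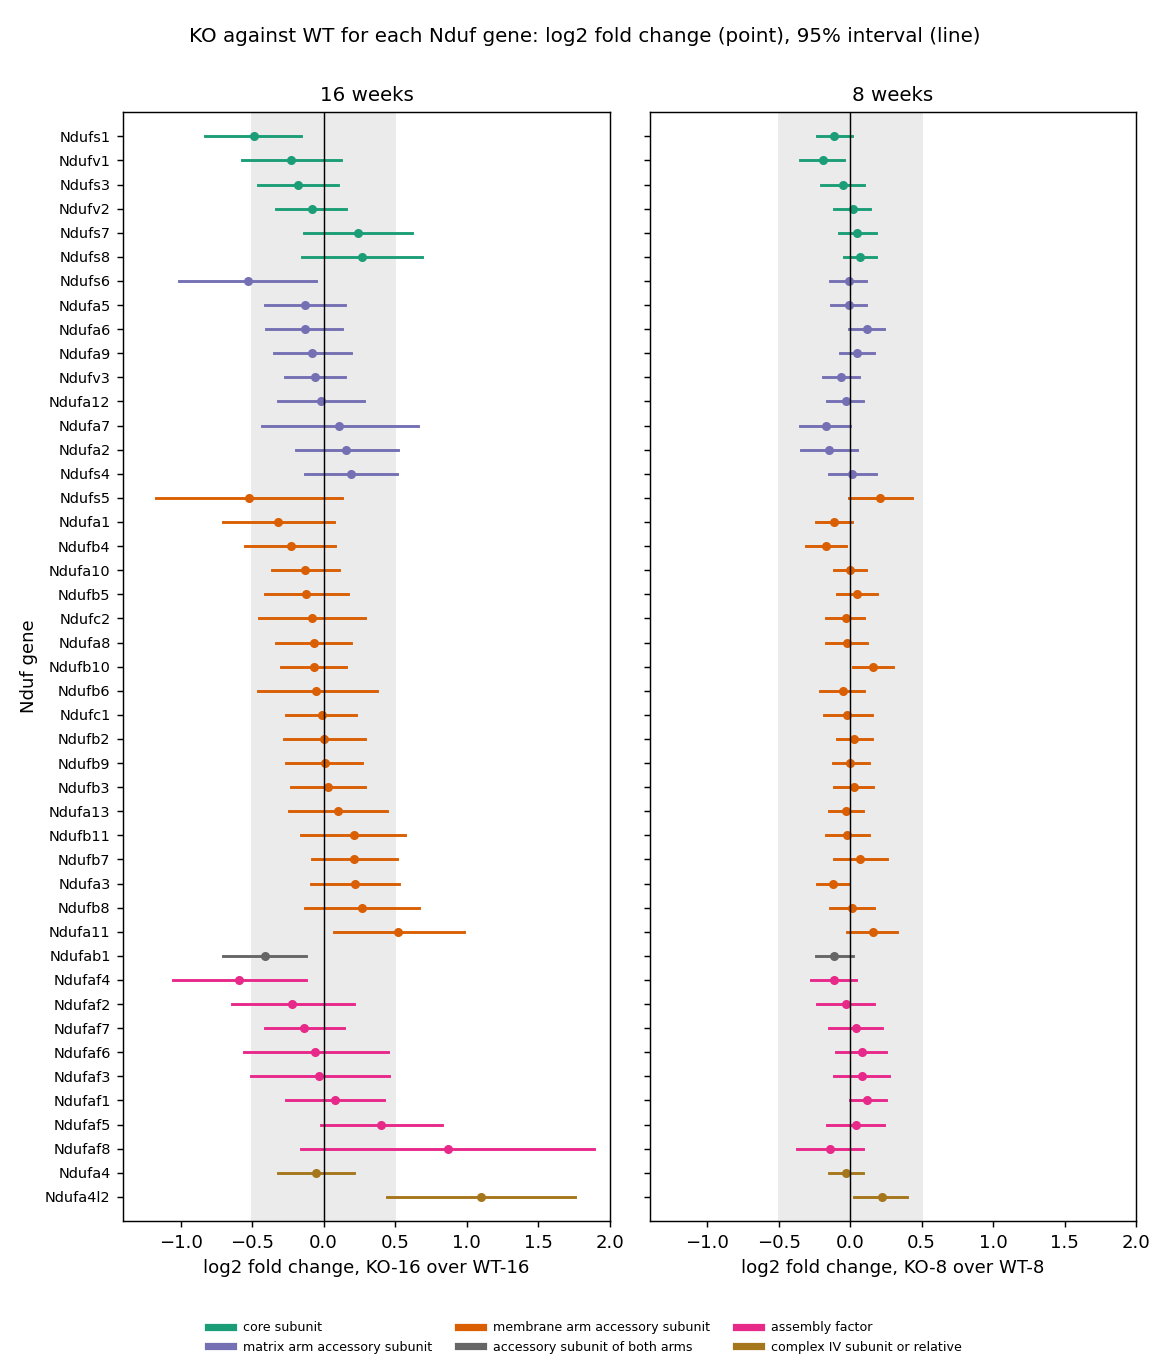
Log2 fold change of each of 45 Nduf genes (x axis; point) with its 95% interval (line), for KO-16 over WT-16 on the left and KO-8 over WT-8 on the right, genes coloured by role and ordered within a role by the 16-week value. The grey band is 0.5 on either side of 0: all 45 intervals lie inside it at 8 weeks and 21 of 45 at 16 weeks.

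The 7 nuclear core subunits had a median log2 fold change of -0.18 at 16 weeks, and 5 of the 7 were below 0. Ndufs1 (chromosome 1, 63143596 to 63176833, minus strand, GRCm38) encodes the largest subunit of the matrix arm, which carries iron-sulfur clusters. It had 499.8, 302, 283, 304 and 396 CPM in KO-16 replicates 1 to 5, against 473, 459, 513, 527 and 542 CPM in WT-16 replicates 1 to 5. Replicates 2, 3, 4 and 5 of KO-16 lay below every WT-16 library, and replicate 1 lay among the WT-16 libraries. Replicate 1 had the most Mpc1 of the KO-16 libraries, and a link between Mpc1 and Ndufs1 levels was not tested. The means were 357 ± 90.98 CPM in KO-16 and 503 ± 35.3 CPM in WT-16 (SD, n = 5 each), with a log2 fold change of -0.49 (SE 0.16, 95% interval -0.83 to -0.16, adjusted p = 0.0901). Without KO-16 replicate 1 Ndufs1 passed the test, with a log2 fold change of -0.65 (adjusted p = 0.00680). Over 23 alternative settings the value stayed between -0.65 and -0.41 and passed the test in 4.

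Ndufv1, which binds NADH and the flavin, had 4 of 5 KO-16 libraries below all WT-16 libraries and replicate 1 just above them, with 266, 174, 143, 179 and 169.7 CPM in KO-16 and 191 to 265 CPM in WT-16. Its log2 fold change was -0.23 (SE 0.16, 95% interval -0.57 to 0.12, adjusted p = 0.406).

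Other core subunits stayed closer to wild type or lay on the other side of 0. The iron-sulfur protein Ndufv2 averaged 185 ± 16.1 CPM in KO-16 and 196 ± 21.1 CPM in WT-16 (SD, n = 5 each), with a log2 fold change of -0.08 (95% interval -0.33 to 0.16). Ndufs3, a core protein without a metal centre, had a log2 fold change of -0.18 (95% interval -0.46 to 0.10). Ndufs7 and Ndufs8, which carry the iron-sulfur clusters next to the ubiquinone site, had log2 fold changes of 0.24 and 0.27 (adjusted p = 0.428 and 0.417). Ndufs8 had 62.7, 83.3, 67.7, 61.6 and 32.9 CPM in KO-16 and 50.3, 48.5, 64.7, 49.5 and 42.3 CPM in WT-16. For Ndufs8 and Ndufs7 alike, replicate 5 of KO-16 was the lowest of all 16-week libraries and replicate 2 the highest, so that the order of the KO-16 libraries was not that of Ndufs1. After adjustment for the 18S share the log2 fold changes of Ndufs7 and Ndufs8 were 0.02 and 0.07, and that of Ndufs1 was -0.48.

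Accessory subunits of the matrix arm, 9 in number, had a median log2 fold change of -0.06, with 6 below 0. Ndufs6 (chromosome 13, 73319838 to 73328542, minus strand), a zinc-binding subunit needed late in assembly of the NADH-oxidising tip, had the lowest value of them. It had 236, 107, 113, 165 and 254 CPM in KO-16 replicates 1 to 5 and 249.6, 249, 199, 269 and 298 CPM in WT-16 replicates 1 to 5. Replicates 2, 3 and 4 of KO-16 lay below every WT-16 library, while replicates 1 and 5 lay within the wild-type range. The log2 fold change was -0.53 (SE 0.23, 95% interval -1.01 to -0.05, adjusted p = 0.178), and it was -0.35 after adjustment for the 18S share. The other 8, among them Ndufs4, whose loss impairs complex I in human disease and in mice, had log2 fold changes between -0.13 (Ndufa5) and 0.19 (Ndufs4). Ndufv3 was the steadiest member in KO-16, with 56.7 to 65.9 CPM there against 58.6 to 65.8 CPM in WT-16 and an interval of -0.27 to 0.15.

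Accessory subunits of the membrane arm, 19 in number, had a median log2 fold change of -0.01, with 10 below 0 and 9 above. Ndufs5 (chromosome 4, 123712710 to 123718202, minus strand), on the face towards the intermembrane space, was the most variable member in KO-16. It had 99.7, 45.2, 34.1, 89.3 and 121 CPM in KO-16 replicates 1 to 5, and 123, 72.3, 86.6, 119.9 and 155 CPM in WT-16 replicates 1 to 5. The lowest values of all 16-week libraries were those of KO-16 replicates 2 and 3. They had the lowest 18S shares of the KO-16 group, 1.71% and 5.66% of the counts. In WT-16 the lowest value was that of replicate 2, with an 18S share of 25.23%. WT-16 replicate 3, with the lowest share of that group (6.88%), had 86.6 CPM. A link between Ndufs5 and the 18S share was not tested. The log2 fold change was -0.52 (SE 0.30, 95% interval -1.17 to 0.13, adjusted p = 0.315), and -0.27 after adjustment for the 18S share.

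Ndufa11 (chromosome 17, 56717767 to 56722141, plus strand), a membrane subunit that also contacts complex III in respiratory supercomplexes, lay on the other side of 0. It had 35.998, 53.6, 46.3, 46.8 and 18.6 CPM in KO-16 replicates 1 to 5 and 26.6, 28.02, 32.3, 25.3 and 28.3 CPM in WT-16 replicates 1 to 5. All KO-16 libraries but replicate 5, the lowest of the 10, lay above every WT-16 library. The log2 fold change was 0.52 (SE 0.21, 95% interval 0.07 to 0.98, adjusted p = 0.162), and 0.70 without KO-16 replicate 5 (adjusted p = 0.0111). It was 0.37 after adjustment for the 18S share (adjusted p = 0.436), and it passed in 2 of 23 alternative settings. Ndufa1, on the X chromosome, had 77.8, 43.3, 34.9, 48.5 and 65.5 CPM in KO-16, where replicates 2, 3 and 4 were low, and a narrow 64.8 to 69.8 CPM in WT-16. Its log2 fold change was -0.32 (95% interval -0.70 to 0.07). The other 16 genes, from Ndufb4 at -0.23 to Ndufb8 at 0.27, included Ndufb9, Ndufb2 and Ndufc1 with log2 fold changes of 0.01, 0.00 and -0.01.

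Ndufab1 (chromosome 7, 122085403 to 122101886, minus strand), the mitochondrial acyl carrier protein, sits in both arms and also serves mitochondrial fatty acid synthesis. It had 51.4, 36.3, 30.9, 37.6 and 39.4 CPM in KO-16 replicates 1 to 5 and 45.5, 56.8, 49.2, 56.96 and 50.8 CPM in WT-16 replicates 1 to 5. All KO-16 libraries except replicate 1 lay below WT-16. The log2 fold change was -0.41 (SE 0.14, 95% interval -0.70 to -0.12, adjusted p = 0.0998), and -0.53 without KO-16 replicate 1 (adjusted p = 0.0133). It was -0.40 after adjustment for the 18S share (adjusted p = 0.223), and it passed in 3 of 23 alternative settings.

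The 8 Ndufaf assembly factors had a median log2 fold change of -0.04 at 16 weeks, beside -0.06 for the 36 subunits. Their range was wider, -0.59 to 0.87 against -0.53 to 0.52 for the subunits. The quartiles were close, -0.16 and 0.16 against -0.15 and 0.13. The upper end was Ndufaf8 alone, and the next highest was Ndufaf5 with 0.40. Ndufaf4 (chromosome 4, 24898083 to 24905001, plus strand), which acts with Ndufaf3 on an early intermediate of the matrix arm, had the lowest log2 fold change of all 46 members. It had 58.9, 35.7, 30.3, 34.8 and 69.1 CPM in KO-16 replicates 1 to 5 and 63.7, 76.1, 50.8, 74.4 and 78.2 CPM in WT-16 replicates 1 to 5. Replicates 2, 3 and 4 of KO-16 lay below all WT-16 libraries, and replicates 1 and 5 did not, as for Ndufs6. The log2 fold change was -0.59 (SE 0.22, 95% interval -1.05 to -0.12, adjusted p = 0.128), and -0.78 without KO-16 replicate 5 (adjusted p = 0.0261). It was -0.44 after adjustment for the 18S share (adjusted p = 0.353), and it passed in 3 of 23 alternative settings. Its partner Ndufaf3 averaged 5.49 ± 1.86 CPM in KO-16 and 5.67 ± 0.732 CPM in WT-16 (SD, n = 5 each), with a log2 fold change of -0.03 and an interval of -0.51 to 0.46.

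Ndufaf8 (chromosome 11, 120098928 to 120100705, plus strand) and Ndufaf5, which are known to act together on the core subunit Ndufs7, had the highest values among the assembly factors. Ndufaf8 had the lowest CPM of all members at 16 weeks, with 1.54, 3.07, 1.30, 0.855 and 0.499 CPM in KO-16 and 0.759, 0.362, 1.29, 0.999 and 0.460 CPM in WT-16. Its log2 fold change was 0.87 (SE 0.48, 95% interval -0.16 to 1.89, adjusted p = 0.289), the widest interval of any member, and 0.38 after adjustment for the 18S share. Ndufaf5 had 5.47, 8.74, 6.17, 5.99 and 5.82 CPM in KO-16 and 3.79, 6.33, 4.97, 4.33 and 5.06 CPM in WT-16, a log2 fold change of 0.40 (SE 0.20, 95% interval -0.02 to 0.83, adjusted p = 0.237). Replicate 2 of KO-16 was the highest for both genes, and the groups overlapped.

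Among the other assembly factors, Ndufaf1, part of the membrane-arm assembly complex, had a log2 fold change of 0.08 (95% interval -0.26 to 0.42). Ndufaf2, a relative of the subunit Ndufa12 whose place it holds during assembly, had -0.22 (-0.64 to 0.21), and Ndufa12 itself -0.02 (-0.32 to 0.28). Ndufaf6 had -0.06 (-0.56 to 0.45), and Ndufaf7, a methyltransferase of the matrix, had -0.14 (-0.41 to 0.14).

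Ndufa4l2 (chromosome 10, 127514967 to 127517154, plus strand), which is induced under hypoxia in other cell types, had the highest log2 fold change of the 46 genes and the smallest adjusted p. It had 3.44, 6.03, 6.67, 3.79 and 1.99 CPM in KO-16 replicates 1 to 5 and 1.52, 2.17, 2.35, 2.17 and 2.07 CPM in WT-16 replicates 1 to 5. Replicates 1 to 4 of KO-16 lay above every WT-16 library, and replicate 5 did not. The means were 4.38 ± 1.93 CPM in KO-16 and 2.05 ± 0.316 CPM in WT-16 (SD, n = 5 each), with a log2 fold change of 1.10 (SE 0.31, 95% interval 0.44 to 1.76, adjusted p = 0.0673). Over 23 alternative settings it stayed between 0.81 and 1.27 and passed the test in 6. The complex IV subunit Ndufa4 averaged 119 ± 13.5 CPM in KO-16 and 123 ± 15.6 CPM in WT-16 (SD, n = 5 each), with a log2 fold change of -0.05 (SE 0.12, 95% interval -0.32 to 0.21, adjusted p = 0.825).

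**Figure D2:**
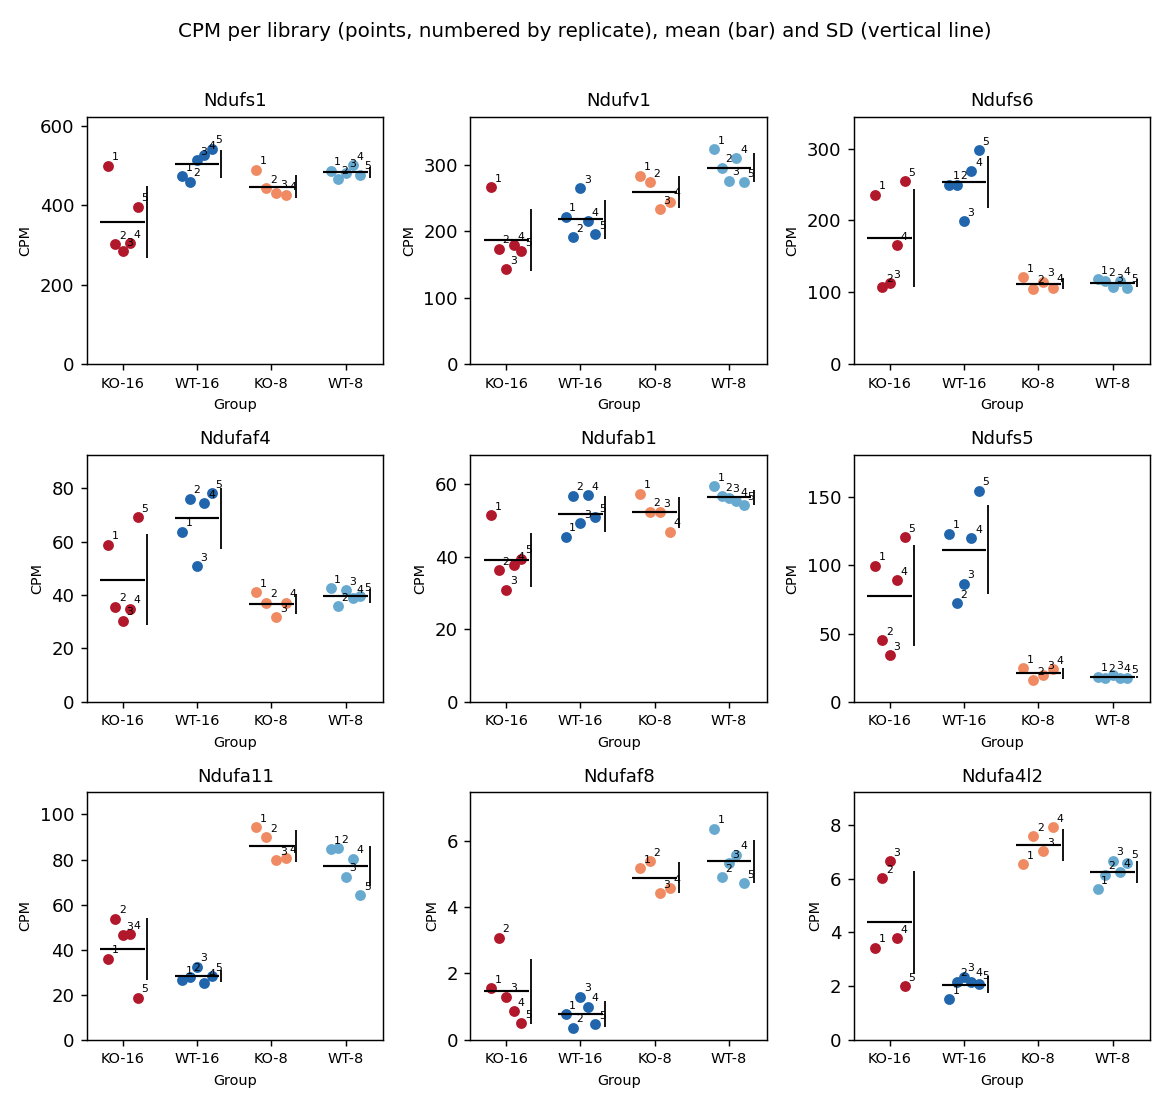
CPM (y axis, from 0) of 9 Nduf genes in every library (points, numbered by replicate within a group), with the group mean (bar) and SD (vertical line); KO-16 is left of WT-16 and KO-8 left of WT-8. For Ndufs1 and Ndufab1, KO-16 replicate 1 alone lies in the WT-16 range, whereas for Ndufs6 and Ndufaf4 replicates 1 and 5 do.

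The summed cardiomyocyte markers (10 of 10 measured, none at 0) lay between 29142 and 49731 CPM in KO-16 and between 47372 and 54397 CPM in WT-16. The 8 fibroblast markers, all measured and none at 0, lay between 986 and 2064 CPM in KO-16 and between 679 and 1017 CPM in WT-16. The 6 endothelial markers lay between 507 and 735 CPM in KO-16 and between 458 and 512 CPM in WT-16, and the 4 atrial markers between 248 and 2353 CPM in KO-16 and between 27.1 and 549.7 CPM in WT-16. At 8 weeks KO-8 lay wholly above WT-8 for the fibroblast sum (1393 to 1853 CPM in KO-8 and 1219 to 1307 CPM in WT-8), the endothelial sum (594 to 661 and 531 to 569.9 CPM), the smooth muscle and pericyte sum (759 to 951 and 698 to 748 CPM) and the atrial sum (111 to 208 and 24.3 to 51.8 CPM). Of the 4 atrial markers (Myl7, Myl4, Sln and Nppa), Myl7 is the only one given singly here, and its values overlapped between genotypes at both times. It had 0.295 to 0.530 CPM in KO-8 and 0.0642 to 2.89 CPM in WT-8. At 16 weeks it had 0.558 to 48.1 CPM in KO-16 and 0.0 to 87.8 CPM in WT-16. The cardiomyocyte sum overlapped at 8 weeks, with 40146 to 47105 CPM in KO-8 and 45265 to 48975 CPM in WT-8. Sums of macrophage and erythroid markers overlapped at both times, and that of smooth muscle and pericyte markers at 16 weeks. Their part in the differences of the Nduf genes was not tested. In whole-tissue RNA, fewer cells of a type and less RNA per cell cannot be told apart.

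The 3 members with the lowest log2 fold changes at 16 weeks, Ndufaf4, Ndufs6 and Ndufs5, and the subunit with the highest, Ndufa11, shared a feature of their promoters. Each holds the letters GCGCNTGCG, the core of the site known for nuclear respiratory factor 1 (NRF1), a regulator of nuclear genes for mitochondrial proteins, within 250 bases before its RefSeq start. Both strands were searched. The letters were not found before Ndufab1, Ndufs8, Ndufaf5 or Ndufaf8, which were also among the 5 lowest or 5 highest members. Their log2 fold changes at 16 weeks were -0.41, 0.27, 0.40 and 0.87. Ndufs1 (-0.49), among the 5 lowest, and Ndufa4l2 (1.10), the highest, were not among the members with a match either. Whether a promoter was found for them is not given here. The sequences before Ndufaf4, Ndufs5 and Ndufa11 are shown 5′ to 3′ on the strand of the gene (RefSeq, GRCm38.p6), up to the first base of the Ensembl or the RefSeq gene, with the match in capitals. They let the place of the match be compared between genes whose fold changes had opposite signs.
Ndufaf4: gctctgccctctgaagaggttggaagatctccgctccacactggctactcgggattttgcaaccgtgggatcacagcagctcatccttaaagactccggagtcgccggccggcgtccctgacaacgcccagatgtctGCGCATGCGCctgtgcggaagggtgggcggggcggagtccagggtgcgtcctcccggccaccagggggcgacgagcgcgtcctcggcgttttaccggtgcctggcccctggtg
Ndufs5: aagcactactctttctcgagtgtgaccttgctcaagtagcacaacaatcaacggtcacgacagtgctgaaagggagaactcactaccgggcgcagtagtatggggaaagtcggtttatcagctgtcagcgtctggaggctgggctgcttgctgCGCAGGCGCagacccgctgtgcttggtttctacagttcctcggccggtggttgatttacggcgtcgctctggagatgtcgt
Ndufa11: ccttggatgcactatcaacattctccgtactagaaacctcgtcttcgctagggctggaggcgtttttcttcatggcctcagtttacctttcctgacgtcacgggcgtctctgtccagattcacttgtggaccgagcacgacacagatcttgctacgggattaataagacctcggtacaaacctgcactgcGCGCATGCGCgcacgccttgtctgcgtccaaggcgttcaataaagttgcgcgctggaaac

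The Ndufaf4 sequence lies at chr4:24897833-24898082 on the plus strand, Ndufs5 at chr4:123718203-123718436 on the minus strand and Ndufa11 at chr17:56717512-56717761 on the plus strand. The first match begins 113 bases before the RefSeq start in Ndufaf4, 97 in Ndufs5 and 60 in Ndufa11. In Ndufaf4 and Ndufa11 both strands match at overlapping positions, and in Ndufs5 the match is on the strand opposite to the gene. In Ndufs6 it begins 16 bases before the RefSeq start, inside the gene as Ensembl draws it, and is not printed. Promoters were found for 40 of the 46 members, and 9 of the 40 (22.5%) held the letters, against 5.19% of 32851 RefSeq promoters. The other 5 were Ndufa5, Ndufa8, Ndufa12, Ndufb4 and Ndufb10, with log2 fold changes of -0.13, -0.07, -0.02, -0.23 and -0.07 at 16 weeks. Of other letters searched on both strands, CCGGAAG (ETS family, GABP) was in 5 of 40 members (12.5%; 6.91% of all promoters), TNAAGGTCA (ERR) in 1, Ndufb4 (2.5%; 1.14%), and AAGATGGC (YY1) in 0 (1.56%). The sequences shown hold none of these 3, so no match there overlaps another motif. The shares of members count a gene if any of its promoters matched, while the shares of all promoters count each promoter singly. The 2 kinds of share are therefore not strictly alike. A match of letters is a description and not a bound site.

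At 8 weeks the Nduf genes lay close to wild type. No member passed the edgeR test, where 8.19% of all genes did (1270 genes, 4.01% higher and 4.19% lower), and KO-8 was wholly above WT-8 for 0 members (4.99% of all genes). Of the 46, 0 passed by DESeq2 (4.42% of all genes higher and 4.26% lower), 0 by limma-voom (3.99% and 4.08%), 0 by limma-voom with quality weights (3.74% and 3.84%) and 0 in a fit to all 19 libraries (0.11% and 0.0903%). At an unadjusted p of 0.05, 6 of 46 (13%) passed, against 23.0% of all genes. They included Ndufv1, Ndufb4 and Ndufa3, lower in KO-8, and Ndufb10 and Ndufa4l2, higher in KO-8. All log2 fold changes lay between -0.19 and 0.22. The 95% intervals of all 46 members stayed within 0.5 of 0, and the extremes of any interval were -0.37 and 0.43, while 65.8% of all genes had an interval within that band.

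The lowest fold change was that of Ndufv1, with 283, 274, 233 and 245 CPM in KO-8 replicates 1 to 4 and 323, 296, 276, 309.8 and 274 CPM in WT-8 replicates 1 to 5. Its log2 fold change was -0.19 (SE 0.07, 95% interval -0.35 to -0.04, adjusted p = 0.119). KO-8 and WT-8 libraries overlapped. Ndufa3, a small membrane-arm subunit, was the only member whose groups did not overlap, where 5.75% of all genes had KO-8 wholly below WT-8. The highest KO-8 library had 102.11 CPM and the lowest WT-8 library 102.25 CPM, a log2 fold change of -0.12 (SE 0.05, 95% interval -0.23 to -0.01, adjusted p = 0.179), and at 16 weeks its value was 0.22. Ndufa7, Ndufb4 and Ndufa2 followed, with -0.17, -0.17 and -0.15 (adjusted p = 0.218, 0.133 and 0.362).

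On the other side of 0, Ndufa4l2 had 6.54, 7.59, 7.03 and 7.92 CPM in KO-8 and 5.62, 6.16, 6.68, 6.26 and 6.59 CPM in WT-8, a log2 fold change of 0.22 (SE 0.09, 95% interval 0.03 to 0.40, adjusted p = 0.143). It was the member with the highest value at both times. Ndufs5 had 24.7, 15.8, 19.8 and 23.8 CPM in KO-8 and 18.5, 17.6, 19.8, 17.7 and 17.3 CPM in WT-8, a log2 fold change of 0.21 (SE 0.10, 95% interval -0.01 to 0.43, adjusted p = 0.246). Without KO-8 replicate 2, its lowest library, the value was 0.33 and passed the test (adjusted p = 0.0261). Ndufb10, Ndufa11 and Ndufaf1 had log2 fold changes of 0.16, 0.16 and 0.12 (adjusted p = 0.157, 0.281 and 0.221). Among the genes that stood out at 16 weeks, Ndufs1 had -0.11 at 8 weeks (95% interval -0.23 to 0.01), Ndufs6 -0.01 (-0.14 to 0.11), Ndufab1 -0.11 (-0.24 to 0.02), Ndufaf4 -0.11 (-0.27 to 0.04) and Ndufaf8 -0.14 (-0.37 to 0.09).

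The remaining assembly factors at 8 weeks had log2 fold changes of -0.03 (Ndufaf2), 0.08 (Ndufaf3), 0.04 (Ndufaf5), 0.08 (Ndufaf6) and 0.04 (Ndufaf7). The median was 0.04 over the 8 assembly factors and -0.01 over the 36 subunits, beside -0.01 over all genes. The core subunits Ndufv2, Ndufs3, Ndufs7 and Ndufs8 had 0.02, -0.05, 0.05 and 0.07, none with an interval that left 0.

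The difference between the KO effect at 16 weeks and that at 8 weeks was tested in all 19 libraries. The edgeR fit took 1 spread per gene for both times, although libraries varied more at 16 weeks. An SE of the difference can thus be too small. For Ndufaf8 it was 0.45, below the SE of 0.48 at 16 weeks alone. By edgeR 0 of 46 members and 0.0% of the 15503 genes passed at an adjusted p of 0.05, while 4 of 46 members and 12.9% of all genes passed at an unadjusted p of 0.05. DESeq2 called 0 members (0.142% of all genes higher and 0.0516% lower) and limma-voom 0 (0.0% and 0.0%). By limma-voom with quality weights 3 were lower, Ndufs1, Ndufaf4 and Ndufs6 (1.95% of all genes), and 0 higher (1.44%). The 4 members at an unadjusted p of 0.05 by edgeR were Ndufs1, with a difference of -0.38 (SE 0.18, 95% interval -0.75 to -0.02, adjusted p = 0.373), and Ndufa3, Ndufa4l2 and Ndufaf8, with 0.34, 0.91 and 1.03 (adjusted p = 0.386, 0.312 and 0.350). For Ndufs1 the difference was -0.54 without KO-16 replicate 1, and it then passed (adjusted p = 0.0316). It was then the 1 member lower (1.78% of all genes), with 0 higher (2.11%). Without KO-16 replicate 5, 0 members were lower (0.129%) and 0 higher (0.6%). The lowest estimate, -0.73 for Ndufs5, had an interval of -1.52 to 0.05.

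Variation between libraries of a group was wider at 16 weeks. The median SD of log2 CPM over the 46 members was 0.28 in KO-16 and 0.18 in WT-16, against 0.11 in KO-8 and 0.09 in WT-8, and over all genes tested it was 0.32, 0.29, 0.14 and 0.12 in the same groups. Within KO-16 the SD ran between 0.09 (Ndufv3) and 0.78 (Ndufs5). Replicate 1 had the highest summed subunit level of the KO-16 libraries and replicate 3 the lowest. Ndufs1, Ndufs6, Ndufa1, Ndufaf4 and Ndufs5 were low in replicates 2 and 3, and Ndufs7, Ndufs8, Ndufa11 and Ndufb8 were low in replicate 5.

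**Figure D3:**
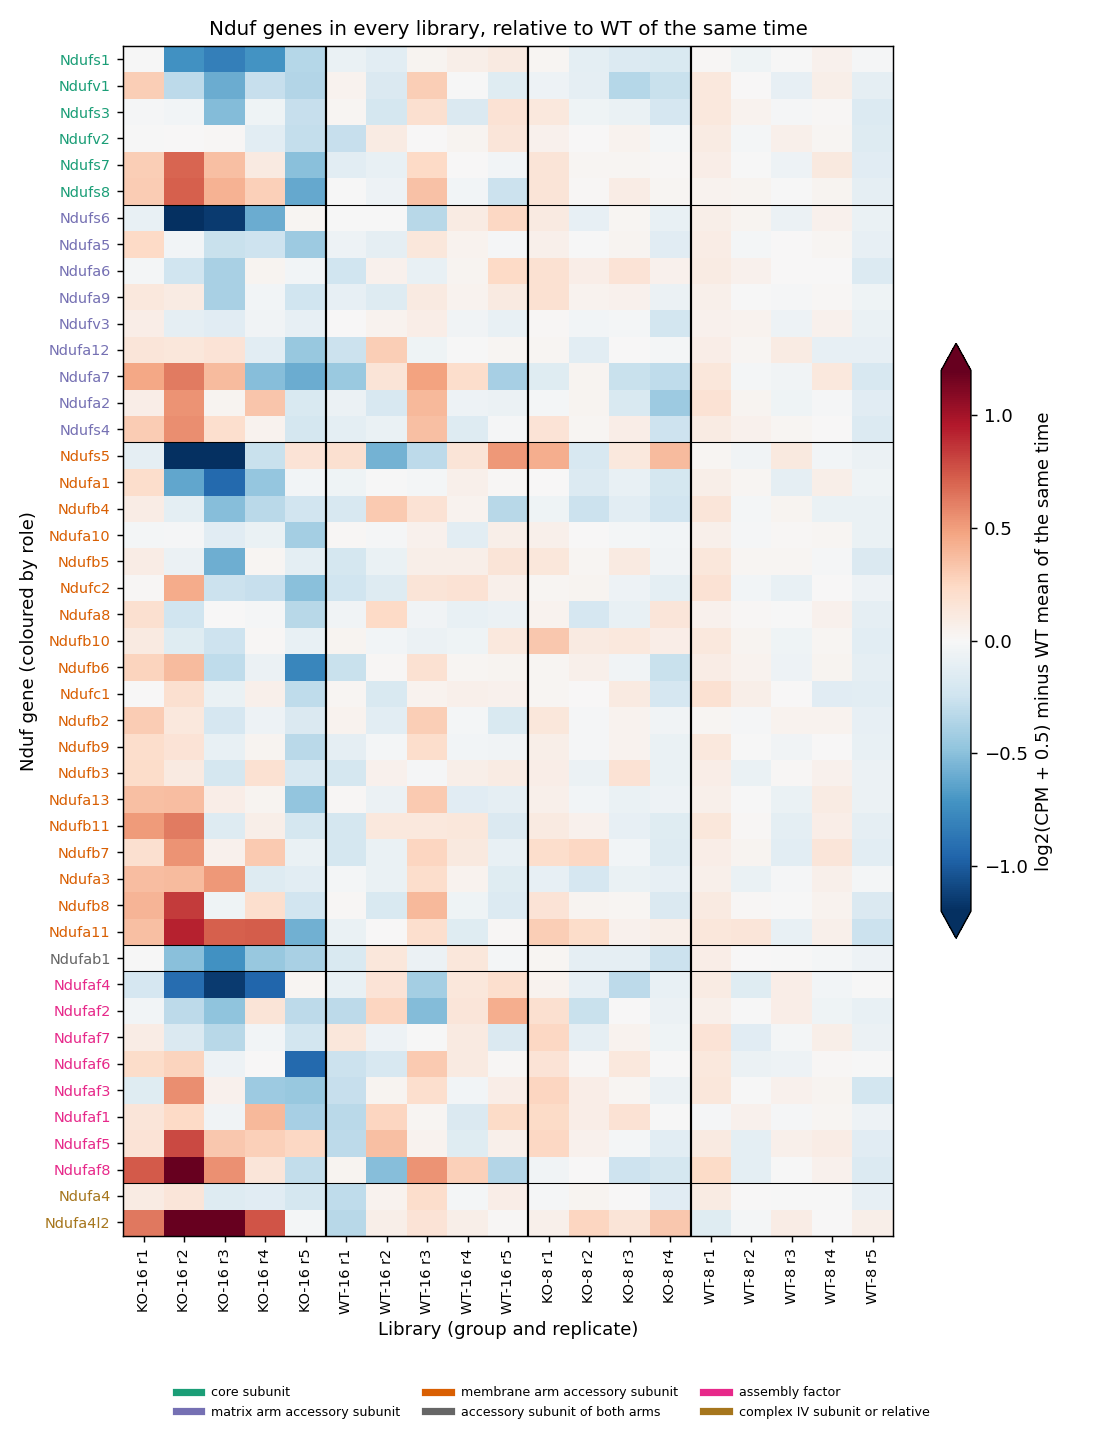
Level of 45 Nduf genes (rows, coloured by role) in the 19 libraries (columns), as log2(CPM + 0.5) minus the mean of the WT libraries of the same time; the colour scale ends at 1.2 on either side of 0. The 8-week columns are pale throughout, and the KO-16 columns differ from one another, with replicates 2 and 3 darkest for Ndufs6 and Ndufs5.

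Subunits and assembly factors were also summed per library. The 36 subunits together had 3643 ± 457 CPM in KO-16 and 4048 ± 187 CPM in WT-16 (SD, n = 5 each), ranges of 3197 to 4374 and 3824 to 4235 CPM that overlapped. At 8 weeks the sum was 4922 ± 257 CPM in KO-8 (n = 4) and 5017 ± 240.0 CPM in WT-8 (n = 5). The 8 Ndufaf genes together had 116 ± 14.7 CPM in KO-16 and 139.6 ± 16.9 CPM in WT-16, and 118 ± 9.20 CPM in KO-8 and 118 ± 5.73 CPM in WT-8. Assembly factors thus stood at 3.21% ± 0.300 of the subunit sum in KO-16 and 3.45% ± 0.436 in WT-16, and at 2.39% ± 0.0757 in KO-8 and 2.35% ± 0.0804 in WT-8. At each time this share differed between the genotypes by less than the SD of the groups. Ndufaf4 was the largest part of the Ndufaf sum in every group. It averaged 45.8 CPM in KO-16, 68.7 CPM in WT-16, 36.7 CPM in KO-8 and 39.7 CPM in WT-8. The sum and the share therefore follow this gene more than any other assembly factor.

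**Figure D4:**
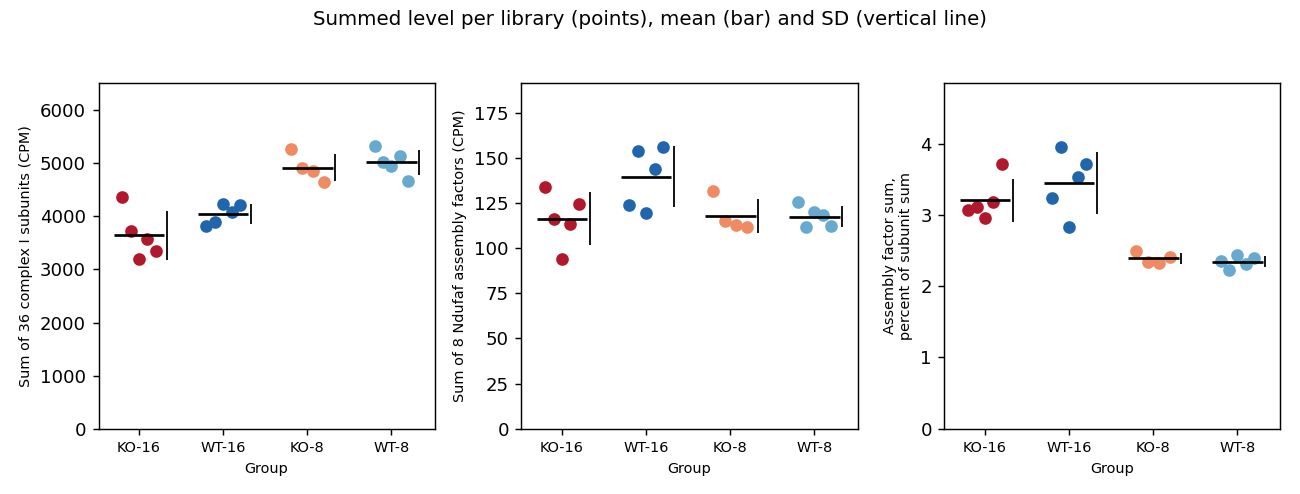
Summed CPM of the 36 subunits (left), of the 8 Ndufaf assembly factors (middle) and the second as a percent of the first (right) in each library (points), with group mean (bar) and SD (vertical line). KO-16 and WT-16 overlap in all 3 panels, as do KO-8 and WT-8.

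Levels per kilobase of exon length differed among members by far more than between genotypes. The length is that of all annotated exons of a gene, so genes with long rarely used exons have low values. Over the 19 libraries the highest included Ndufb9 with 226 CPM per kb, Ndufs6 with 185, Ndufb10 with 175 and Ndufa5 with 148 CPM per kb. The lowest were Ndufaf7 with 3.84, Ndufaf8 with 3.63 and Ndufaf2 with 3.61 CPM per kb. All 8 assembly factors held rank 34 or lower among the 46, Ndufaf1 with 17.8 CPM per kb being the highest of them. Ndufa4 had 132 CPM per kb and its relative Ndufa4l2 4.45.

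Between the times, 25 of 46 members had every KO-16 library below every KO-8 library, where 14.7% of all genes did, and 2, Ndufs5 and Ndufaf2, had every one above (10.9% of all genes). In wild type, 26 members had every WT-16 library below every WT-8 library (21.6% of all genes), and 6 had every one above (17.5%). The 6 were Ndufs5, Ndufs6, Ndufa6, Ndufb10, Ndufaf2 and Ndufaf4. The median log2 ratio of the members was -0.46 for KO-16 over KO-8 and -0.40 for WT-16 over WT-8, against 0.01 and -0.01 over all genes. Ndufs5 had the highest ratios, 1.89 in KO and 2.61 in WT, and Ndufaf8 the lowest, -1.75 and -2.80. Time cannot be told apart from differences between the sets of libraries, since only the 16-week samples came as 2 files each and held far more 18S.

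**Figure D5:**
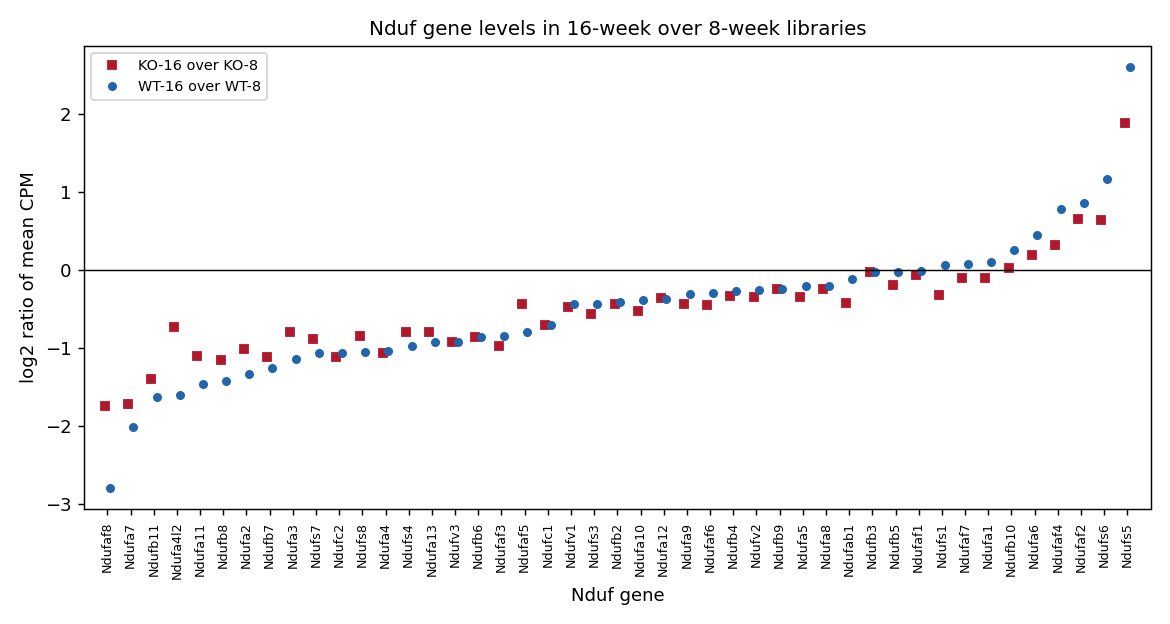
Log2 ratio of the mean CPM (y axis) of each of 45 Nduf genes (x axis, ordered by the WT ratio) in 16-week over 8-week libraries, for KO (squares) and WT (circles). Most genes lie below 0 in both genotypes, and Ndufs5 stands highest with 1.89 in KO and 2.61 in WT.

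Other genes of the pathway were the assembly factors with other names and the subunits encoded in mitochondrial DNA. Of 13 further assembly factors listed, 12 were matched and tested. By edgeR 0 of the 12 passed at either time (2.55% of all genes at 16 weeks and 8.19% at 8 weeks). At each time 1 had an unadjusted p under 0.05, beside 23.5% of all genes at 16 weeks and 23.0% at 8 weeks. DESeq2 and limma-voom, with or without quality weights, gave 0, where they called 0.729% to 8.1% of all genes per direction. The fit to all 19 libraries gave 0 at 8 weeks (0.11% of all genes higher and 0.0903% lower). At 16 weeks that fit gave 1 lower, Tmem186 (9.33% of all genes), and 0 higher (11.2%). The lowest at 16 weeks was Tmem186, part of the assembly complex that holds Ndufaf1, with 16.4, 13.3, 14.8, 15.9 and 16.8 CPM in KO-16 and 19.7, 22.6, 15.8, 19.98 and 27.1 CPM in WT-16, a log2 fold change of -0.44 (SE 0.15, 95% interval -0.76 to -0.13, adjusted p = 0.101). The median of the 12 was 0.09 at 16 weeks and 0.02 at 8 weeks. The 7 complex I subunits encoded in mitochondrial DNA had a median log2 fold change of -0.93 at 16 weeks and all 7 were below 0. By edgeR 0 of the 7 passed (2.55% of all genes) and 6 had an unadjusted p under 0.05 (23.5%). Of the 7, 2 were lower by DESeq2 (3.39% of all genes), 0 by limma-voom (1.77%), 6 by limma-voom with quality weights (8.1%) and 5 in a fit to all 19 libraries (9.33%). For the difference of effects, 0 of the 7 passed by edgeR (0.0% of all genes), DESeq2 (0.142% higher and 0.0516% lower) or limma-voom (0.0%). By limma-voom with quality weights 1, mt-Nd5, was lower (1.95%). The lowest, mt-Nd5, averaged 20084 ± 11944 CPM in KO-16 and 46547 ± 16403 CPM in WT-16 (SD, n = 5 each), with a log2 fold change of -1.21 (SE 0.39, 95% interval -2.04 to -0.38, adjusted p = 0.0911). It had 22233, 8102, 14318, 16315 and 39449 CPM in KO-16 replicates 1 to 5. In WT-16 replicates 1 to 5 it had 55777, 44848, 19487, 50600 and 62022 CPM. In each group mt-Nd5 was lowest in the library with the lowest 18S share, KO-16 replicate 2 (1.71%) and WT-16 replicate 3 (6.88%). KO-16 replicate 4 had the highest 18S share of its group (29.96%) but not the highest mt-Nd5. A link between mt-Nd5 and the 18S share was not tested. At 8 weeks the median of the 7 was -0.09. By edgeR 0 of the 7 then passed (8.19% of all genes), and 0 had an unadjusted p under 0.05 (23.0%). DESeq2 and limma-voom, with or without quality weights, called 0 of the 7 at 8 weeks (3.74% to 4.42% of all genes per direction). The fit to all 19 libraries also called 0 there (0.11% of all genes higher and 0.0903% lower). All mitochondrial genes took 27.94% to 38.17% of the counts in KO-16 and 29.97% to 41.6% in WT-16.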

How the data were processed

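The deposited values were counts of read pairs per gene, made, per the file headers, by featureCounts 1.6.3 in paired, reverse-stranded mode on Ensembl 96. The submitters' processing notes give GRCm38 and name STAR, RSEM, SAMtools, FastQC and cutadapt 1.16 without role or order. Per the labels' protocols, ribosomal RNA was depleted with Ribo-Zero Gold. All 55536 genes of each file matched GENCODE M21 in start, end and strand. Each 16-week sample had 2 files, which were summed. Chi-square per gene was 1.34 to 3.15 within such a pair and 6.31 or more for any 2 libraries of a group.

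Counts were tested with edgeR 4.0.16 (quasi-likelihood) in R 4.3.3, with filterByExpr and TMM factors (0.455 to 1.476) from all 19 libraries, Benjamini-Hochberg adjustment over 15503 genes and a threshold of 0.05. KO-16 and WT-16 were fitted on the 16-week libraries and KO-8 and WT-8 on the 8-week libraries, because the common coefficient of variation was 0.24 at 16 weeks and 0.094 at 8 weeks. The difference of effects was fitted to all 19 libraries. CPM are counts over the TMM-scaled library total. SE was taken as the size of the log2 fold change divided by the root of F, and intervals are 95%. The fit was tested on counts simulated with a coefficient of variation of 0.24 at 16 weeks and 0.094 at 8 weeks. At 8 weeks it recovered 73.1% of 1.5-fold and 94% of 2-fold changes, with 11 false calls among 189.

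The members, lists, roles and rules were chosen with earlier results of these data known. Named with values were the 5 largest log2 fold changes in each direction at each time with a mean of at least 1 CPM, all Ndufaf genes, core subunits, the 5 highest and 3 lowest per kilobase, and members outside complex I. Members named beyond these, such as Ndufa1, Ndufa3 and Ndufv3, were chosen after their values were seen. One member's own values are not reported here, while counts, medians and sums over the members hold it. Alternatives were RLE factors, no filter, filter and TMM from the compared libraries, a fit to all 19 libraries, DESeq2 1.42.0, limma 3.58.1 voom with and without quality weights, mitochondrial and rRNA genes left out, nuclear protein-coding genes alone, adjustment for the 18S share, male libraries left out, either 16-week file by itself, and leaving out 1 library at a time. Python 3.11.15 with pandas 2.3.3, numpy 2.4.6 and matplotlib 3.10.9 did the rest. Promoter sequences are RefSeq's (GRCm38.p6).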

Additional observations from a re-analysis of the deposited data

Results flagged for a closer look

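Among 45 Nduf genes in 4 groups, 10 of 180 gene and group pairs (5.56%) had 1 library set apart from the others of its group by Dixon's criterion, where chance gives about 1 in 20. In KO-16, Ndufaf5 was at 8.74 CPM in replicate 2 and between 5.47 and 6.17 CPM in the others. In WT-16 replicate 3, Ndufs4 was at 59.5 CPM (others 41.3 to 45.8), Ndufb9 at 248 CPM (others 199 to 210.1) and Ndufa2 at 18.6 CPM (others 12.3 to 13.5). That library had the lowest 18S share of WT-16, 6.88%. In WT-16 replicate 2, Ndufa8 was at 111 CPM (others 88.4 to 91.4) and Ndufc1 at 27.8 CPM (others 32.1 to 33.1). In KO-8 replicate 1, Ndufs7 was at 155.5 CPM (others 141 to 142) and Ndufb10 at 239 CPM (others 203 to 209), and in KO-8 replicate 2 Ndufa3 was at 94.1 CPM (others 101 to 102). In WT-8 replicate 5, Ndufs8 was at 98.1 CPM, below the 106 to 109 CPM of the others.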

How the results depend on the processing

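At 16 weeks, Nduf genes higher in KO-16 were 0, and 1 with no filter, by DESeq2 and by voom with quality weights and 2 in the fit to all 19 libraries (0 to 2 with a library left out). Nduf genes lower in KO-16 were 0, and 5 in the fit to all 19 libraries, 1 by DESeq2 and 6 by voom with quality weights (0 to 3 with a library left out: 3 without KO-16 replicate 1, and 2 without KO-16 replicate 5). All genes called at 16 weeks were 396, and 939 with no filter, 3181 in the fit to all 19 libraries, 1199 by DESeq2, 2274 by voom with quality weights, 33 after adjustment for the 18S share and 12 without male libraries (37 to 1864 with a library left out). At 8 weeks 0 became 1 lower with no filter (Ndufv1) and 0 to 1 higher with a library left out (Ndufs5). All genes called at 8 weeks were 1270, and 31 in the fit to all 19 libraries. For the difference of effects, 0 Nduf genes became 3 lower by voom with quality weights and 0 to 1 lower with a library left out (Ndufs1). All genes called there were 0, and 43 with no filter, 30 by DESeq2 and 527 by voom with quality weights (0 to 603 with a library left out). The causes were not tested. Medians of subunits stayed between -0.10 and 0.00 at 16 weeks and between -0.04 and 0.02 at 8 weeks, and those of Ndufaf genes between -0.14 and 0.07 and between -0.04 and 0.08. Of 1529 values of named genes under an alternative, 50 had another sign (23 at 16 weeks, 17 at 8 weeks and 10 for the difference of effects), all where the value compared was at most 0.28 in size. At 16 and at 8 weeks, 0 of these were for the 10 largest genes of that same time. No paired analysis was possible because the labels give no replicate numbers.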

Other observations

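Of the 5 Nduf symbols that are not protein-coding in this annotation, Ndufb1-ps, annotated as a long noncoding RNA from a bidirectional promoter, averaged 34.4 ± 10.1 CPM in KO-16 and 35.6 ± 3.37 CPM in WT-16 (SD, n = 5 each), with a log2 fold change of -0.04 (edgeR adjusted p = 0.908). At 8 weeks it averaged 53.8 CPM in KO-8 and 59.6 CPM in WT-8, a log2 fold change of -0.15 (adjusted p = 0.415). The processed pseudogene Ndufs6b had 12 to 33 counts in KO-16 libraries and 6 to 32 in WT-16 libraries, and the processed pseudogenes Ndufa11b, Ndufab1-ps and Ndufb4c had at most 6 counts in any library.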
